A study of Arabidopsis thaliana with 24 samples.

Results

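Expansins and xyloglucan endotransglucosylase/hydrolases (XTH enzymes) were followed in roots and shoots of Arabidopsis thaliana during the first day at 4 °C. A probe set was taken where its single annotated gene symbol starts with EXPA, EXPB, EXLA, EXLB or XTH and its intensity reached 30 on at least 2 of the 24 arrays. Of 27 probe sets with such a symbol, 22 met this rule, each for a different gene, out of 16073 probe sets that passed the same floor. They comprise 8 alpha-expansins (EXPA4, 7, 8, 9, 15, 16, 18 and 20), 3 beta-expansins (EXPB1, 2 and 3), 3 members of expansin-like family A (EXLA1, 2 and 3), 1 of expansin-like family B (EXLB1) and 7 XTH genes (XTH16, 18, 19, 20, 21, 32 and 33). The RefSeq gene table for TAIR10.1 names 24 EXPA, 6 EXPB, 3 EXLA, 1 EXLB and 30 XTH genes, so the expansin-like families are complete here and the EXPA, EXPB and XTH families are not.

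All groups were plants of Col-0, the standard laboratory accession, that shared one treatment and differed in tissue and in time at 4 °C. The plants were raised in Magenta boxes (Murashige and Skoog medium, 24 °C, day length of 16 h, humidity of 50%), and on day 16 the boxes were put on ice in the cold once the plants had had 3 h of light. Each of the 12 groups, roots and shoots at 0.5, 1, 3, 6, 12 and 24 h, had 2 arrays. Untreated plants are not among the samples analysed here, and every change is therefore set against the 0.5 h arrays of the same tissue. By the clock, 24 h and 0.5 h lie 0.5 h apart, while time of day and length of cold cannot be told apart at 3, 6 and 12 h. Whether the arrays of a pair stand for separate plants is not stated, so each p-value reflects the spread between arrays and may be a technical one.

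Plant cells grow when the wall yields to turgor. Alpha- and beta-expansins loosen the contacts between cellulose and the polymers around it at acidic pH, without hydrolysing them. XTH enzymes act on xyloglucan, which they cut and rejoin to another chain or, in a few cases, hydrolyse. The expansin-like proteins share the 2-domain fold of expansins, but wall-loosening activity has not been established for them.

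The tissue labels were checked against marker genes. The summed intensity of 5 green-tissue markers was 198 to 675 on root arrays, against 13975 to 24974 on shoot arrays, and that of 2 root markers was 4381 to 5720.0 on root arrays, against 409 to 768 on shoot arrays. The marker sums also moved with time. On root arrays the green-tissue sum was 221 and 198 at 24 h, against 319 and 497 at 0.5 h, and 3 of its 5 genes were called lower (LHCB4.2 by a change of -2.51). On shoot arrays it was 13975 and 15323 at 24 h, against 18439 and 19122 at 0.5 h, with 2 of 5 called lower, and the root-marker sum was 409 and 451 at 24 h, against 552 and 768 at 0.5 h, with both genes called lower. Their part in the 24 h changes was not tested. Over all 16073 probe sets, the SD of the log2 difference between the 2 arrays of a group was 0.436 in shoots at 1 h and 0.469 in roots at 3 h, and 0.225 to 0.352 in the other 10 groups. The 25S ribosomal RNA control read 212 and 246 on the shoot arrays at 0.5 h, against 889 to 1862 on other shoot arrays, and its part in changes against 0.5 h was not tested. With 1 h as the baseline 14 of the 22 genes were called at 24 h in roots and 15 in shoots, where 14 were called in each tissue against 0.5 h. Intensities are on a linear scale, all changes are differences of log2(intensity + 10), which understates those of dim probe sets, and a change is called where limma's adjusted p over all 16073 probe sets is under 0.05. The value after ± is the standard error of the fitted difference. Values of different genes come from different probes, so their levels were not compared with each other.

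By 24 h all 3 EXLA genes had risen in each tissue, while the alpha- and beta-expansins that were called had fallen, with EXPA16 in shoots as the exception, and the XTH genes were divided. In roots 6 genes rose, namely EXLA1, EXLA2, EXLA3, XTH18, XTH19 and XTH20, and 8 fell, namely EXPA4, EXPA8, EXPA9, EXPA15, EXPB1, EXPB3, XTH16 and XTH21. In shoots 5 genes rose, namely the 3 EXLA genes, XTH19 and EXPA16, and 9 fell, namely EXPA4, EXPA8, EXPA15, EXPA20, EXPB1, EXPB3, EXLB1, XTH16 and XTH32. Of the 8 alpha-expansins 4 fell in roots and 4 in shoots, and of the 3 beta-expansins 2 fell in each tissue. Of the 7 XTH genes 3 rose and 2 fell in roots, and 1 rose and 2 fell in shoots. EXPA16 and XTH21 met the rule through the same values that make them high in these comparisons, in shoots at 24 h for EXPA16 and in roots at 0.5 h and 1 h for XTH21, and without them 6 of 20 genes rose and 7 fell in roots, and 4 rose and 9 fell in shoots.

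Most of these shares lie near the background. In roots, 27.3% of the 22 genes rose and 36.4% fell by 24 h, against 15.5% and 32.5% of all probe sets tested. In shoots, 22.7% rose and 40.9% fell, against 19.2% and 34.3% of all probe sets. The median change of the 22 genes was -0.52 in roots and -0.41 in shoots, and that of all probe sets was -0.21 in roots and -0.20 in shoots.

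**Figure D1:**
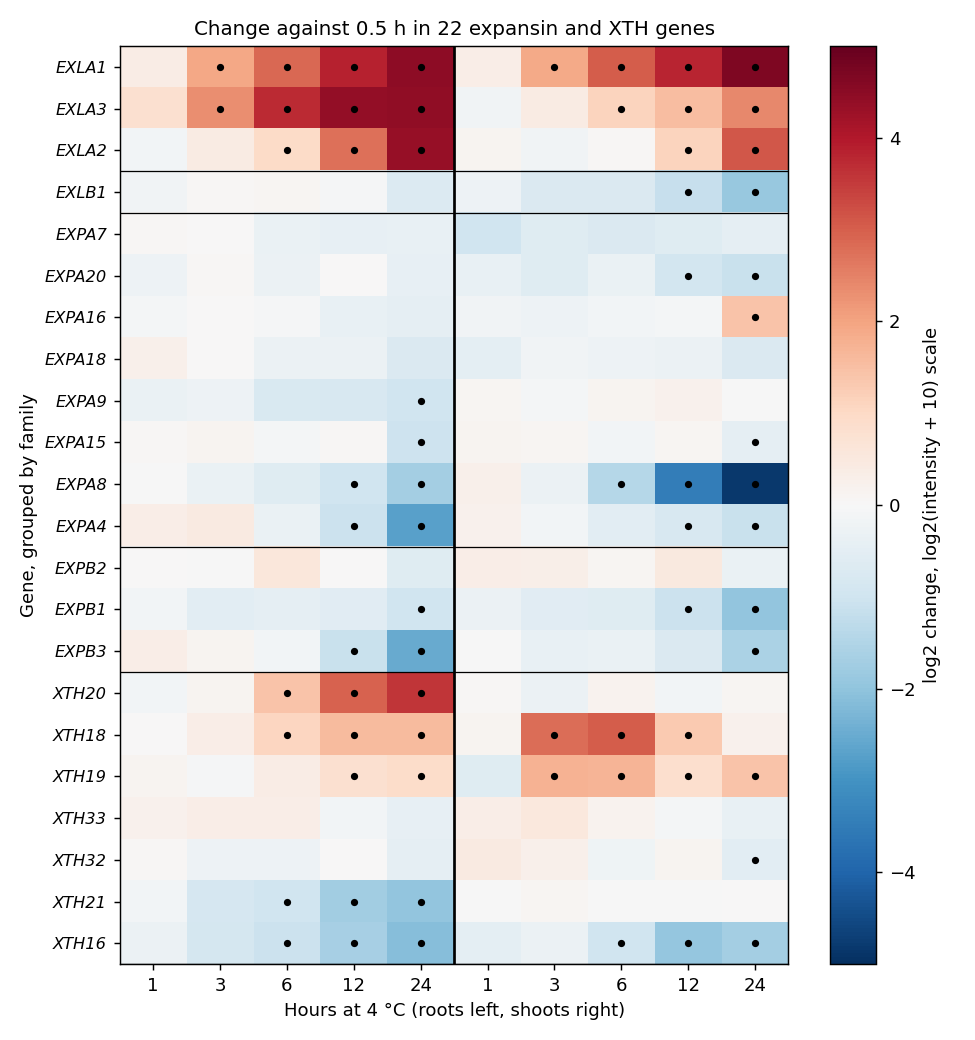
Change against 0.5 h (colour, on the log2(intensity + 10) scale) of the 22 genes, in rows grouped by family, at 1, 3, 6, 12 and 24 h at 4 °C, with roots in the left block and shoots in the right block. Black dots mark changes with limma's adjusted p under 0.05; the 3 EXLA rows are red in both tissues at 24 h, the EXPA and EXPB rows are mostly pale or blue, and the XTH rows hold both colours.

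The number of genes called grew with time. The earliest calls came at 3 h. At 1 h none of the 22 genes was called by limma in roots (background 0.0187% higher and 0% lower), where 1 gene had an unadjusted p under 0.05, and none in shoots (1.82% higher and 0.995% lower), where 3 did. At 3 h, EXLA1 and EXLA3 were higher in roots (background 2.13% higher and 0.317% lower), and EXLA1, XTH18 and XTH19 were higher in shoots (5.29% and 2.41%). At 6 h, 5 genes were higher and 2 lower in roots (background 5.23% and 2.38%), and 4 were higher and 2 lower in shoots (9.74% and 11.9%). At 12 h, 6 were higher and 5 lower in roots (9.93% and 17.8%), and 5 were higher and 6 lower in shoots (14% and 26.3%). With all arrays no gene was called lower before 6 h in either tissue, but this depends on single arrays. Without replicate 1 of shoots at 3 h the change there was -1.21 for EXLB1 and -1.11 for EXPB1, against -0.72 and -0.58 with it. Without replicate 2 of shoots at 1 h the change of XTH16 there was -0.95, against -0.48. Without replicate 2 of roots at 0.5 h its 3 h change in roots was -1.26, against -0.89. The 6 h count in roots depends on single arrays and on the baseline, since 3 genes were called without replicate 1 of roots at 0.5 h or at 6 h and 4 against a 1 h baseline.

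EXLA1, the first of the expansin-like A genes, rose to about the same intensity in both tissues. In roots EXLA1 measured 60.9 and 97.9 at 0.5 h, 117 and 88.2 at 1 h, 271 and 389 at 3 h, 589 and 669 at 6 h, 1406 and 1101 at 12 h, then 1763 and 2106 at 24 h. In shoots EXLA1 measured 70.5 and 75.9 at 0.5 h, 70.00 and 129 at 1 h, 266 and 343 at 3 h, 636 and 711 at 6 h, 1142 and 1201 at 12 h, then 2255 and 1986 at 24 h. From 3 h on both arrays of every group lay above both 0.5 h arrays of the same tissue, and the means increased from each time to the next. EXLA1 had a 24 h change of 4.47 ± 0.25 in roots (adjusted p 4.5e-10) and 4.68 ± 0.25 in shoots (adjusted p 8.3e-11), and the difference between the tissues was not called at -0.21 ± 0.35 (adjusted p 0.7). It was the only one of the 22 genes with no call between roots and shoots over all times, at 0.02 ± 0.10.

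EXLA3 lies next to EXLA1 on chromosome 3, with 0 protein-coding genes between them in TAIR10.1. It rose in both tissues but to different intensities. In roots EXLA3 measured 18.3 and 22.7 at 0.5 h, 47.8 and 38.7 at 1 h, 168 and 123 at 3 h, 416 and 367 at 6 h, 634 and 620.3 at 12 h, then 642 and 663 at 24 h. In shoots EXLA3 measured 5.78 and 5.5 at 0.5 h, 1.48 and 7.01 at 1 h, 4.81 and 18.5 at 3 h, 20.7 and 27.6 at 6 h, 29.5 and 41.8 at 12 h, then 75.2 and 70.5 at 24 h. Every root array was above both shoot arrays of the same time, and the root values at 12 h and 24 h were close to each other while those of shoots were higher at 24 h than at 12 h. EXLA3 was called higher in roots from 3 h and in shoots from 6 h, and the change by 24 h was 4.44 ± 0.25 in roots (adjusted p 4.3e-10) and 2.40 ± 0.25 in shoots (adjusted p 3.4e-07). The change was larger in roots by 2.04 ± 0.35 (adjusted p 0.00027), but with a pseudocount of 1 in place of 10 this difference was 1.46 with an adjusted p of 0.12; both shoot values at 0.5 h lie below 10.

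EXLA2, the remaining gene of this family, lies on chromosome 4 and rose later. In roots EXLA2 measured 15.2 and 26.03 at 0.5 h, 19.8 and 15.2 at 1 h, 16.1 and 50.8 at 3 h, 47.4 and 50.7 at 6 h, 183 and 208 at 12 h, then 563 and 667 at 24 h. In shoots EXLA2 measured 29.2 and 28.5 at 0.5 h, 33.01 and 32.9 at 1 h, 25.6 and 23.1 at 3 h, 28.9 and 31.98 at 6 h, 81.2 and 66.9 at 12 h, then 344 and 300.5 at 24 h. The shoot values stayed between 23.1 and 33.0 up to 6 h, around the floor of 30, and both arrays were above that range at 12 h and 24 h. EXLA2 had a 24 h change of 4.37 ± 0.26 in roots (adjusted p 1.1e-09) and 3.09 ± 0.26 in shoots (adjusted p 3.1e-08). The difference of 1.28 ± 0.37 between the tissues (adjusted p 0.014) was no longer called without replicate 1 of roots at 0.5 h (1.02, adjusted p 0.073), without replicate 2 of roots at 24 h or without replicate 2 of shoots at 24 h.

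EXLB1, the only gene of expansin-like family B, fell in shoots, where the EXLA genes rose. In roots EXLB1 measured 101 and 141 at 0.5 h, 86.4 and 123 at 1 h, 160.3 and 99.2 at 3 h, 144 and 115 at 6 h, 125 and 102 at 12 h, then 97.96 and 51.02 at 24 h. In shoots EXLB1 measured 128 and 142 at 0.5 h, 102 and 119 at 1 h, 113 and 52.6 at 3 h, 87.7 and 67.4 at 6 h, 57.1 and 53.9 at 12 h, then 36.00 and 23.9 at 24 h. In shoots both 12 h and both 24 h arrays lay below every array at 0.5 h and 1 h. EXLB1 had a 24 h change of -0.67 ± 0.31 in roots, which was not called (adjusted p 0.084), and -1.88 ± 0.31 in shoots (adjusted p 7.2e-05). Without replicate 1 of roots at 24 h the root change was -1.09 and was called (adjusted p 0.021). The difference between the tissues, 1.20 ± 0.44 (adjusted p 0.046), was lost under 10 of 18 other settings.

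XTH18, XTH19 and XTH20 are closely related XTH genes, and XTH18 and XTH19 are neighbours on chromosome 4 with 0 protein-coding genes between them. XTH18 has been linked to elongation of the primary root, and XTH19 and XTH20 to the rejoining of cut stem tissue. Each of the 3 was measured by 1 probe set. The platform annotation pairs each of these probe sets with 1 gene, but cross-hybridisation between such close relatives was not tested.

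XTH20 rose in roots and stayed near the bottom of the scale in shoots. In roots XTH20 measured 61.7 and 74.1 at 0.5 h, 61.6 and 59.5 at 1 h, 81.1 and 69.6 at 3 h, 185 and 218 at 6 h, 591 and 582 at 12 h, then 858 and 997 at 24 h. In shoots XTH20 measured 8.36 and 8.74 at 0.5 h, 8.71 and 9.71 at 1 h, 2.19 and 9.16 at 3 h, 6.85 and 15.4 at 6 h, 6.55 and 6.98 at 12 h, then 10.04 and 9.15 at 24 h. From 6 h on the root values lay above all earlier root values, and no shoot array reached the lowest root array. XTH20 had a 24 h change of 3.59 ± 0.19 in roots (adjusted p 3.0e-10) and 0.08 ± 0.19 in shoots (adjusted p 0.76). The tissues differed in this change by 3.51 ± 0.28 (adjusted p 1.2e-07).

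XTH18 was called higher in shoots at 3, 6 and 12 h, and in roots at 6, 12 and 24 h. The root call at 6 h was lost under 10 of 15 other settings. The difference between the tissues was not called at 12 h, and it was not tested at 3 h or 6 h. In roots XTH18 measured 317 and 263 at 0.5 h, 341 and 255 at 1 h, 326 and 400.3 at 3 h, 531 and 708 at 6 h, 1320.5 and 578 at 12 h, then 816 and 956 at 24 h. In shoots XTH18 measured 10.8 and 4.58 at 0.5 h, 11.2 and 7.28 at 1 h, 83.6 and 144 at 3 h, 149 and 119.9 at 6 h, 30.8 and 35.3 at 12 h, then 11.8 and 8.91 at 24 h. In roots both arrays were above the 0.5 h arrays from 3 h to 24 h, while in shoots the values were high at 3 h and 6 h and at 24 h overlapped those at 0.5 h and 1 h. The change in shoots was 2.78 ± 0.31 at 3 h (adjusted p 6.3e-06), 3.04 ± 0.31 at 6 h (adjusted p 8.8e-07) and 0.22 ± 0.31 at 24 h (adjusted p 0.57). In roots the change by 24 h was 1.58 ± 0.31 (adjusted p 0.00049). The 2 root arrays at 12 h were 1.18 apart on the log2 scale, the widest pair among the 22 genes in that group. The difference between the tissues at 24 h, 1.36 ± 0.44 (adjusted p 0.024), was lost under 6 of 18 other settings.

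XTH19 also rose in shoots at 3 h and, unlike XTH18, was still called there at 24 h. In roots XTH19 measured 357 and 319 at 0.5 h, 414 and 331 at 1 h, 363 and 283 at 3 h, 431 and 444 at 6 h, 686 and 506 at 12 h, then 492 and 837 at 24 h. In shoots XTH19 measured 29.03 and 11.1 at 0.5 h, 8.74 and 9.38 at 1 h, 80.6 and 93.7 at 3 h, 87.5 and 78.00 at 6 h, 47.3 and 34.9 at 12 h, then 72.6 and 61.7 at 24 h. All 12 root arrays were above all 12 shoot arrays, and the shoot values from 3 h on were above those at 0.5 h and 1 h. XTH19 had a 24 h change of 0.91 ± 0.26 in roots (adjusted p 0.0088) and 1.42 ± 0.26 in shoots (adjusted p 0.0002), with a difference between the tissues of -0.51 ± 0.37 that was not called (adjusted p 0.31). This difference depends on the baseline, being -1.24 against 1 h (adjusted p 0.018) and -0.88 against the mean of 0.5 h and 1 h (adjusted p 0.041). The root call rests on single arrays: without replicate 2 at 24 h the change was 0.53 with an adjusted p of 0.16, and without replicate 2 at 0.5 h it was 0.83 with an adjusted p of 0.058.

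**Figure D2:**
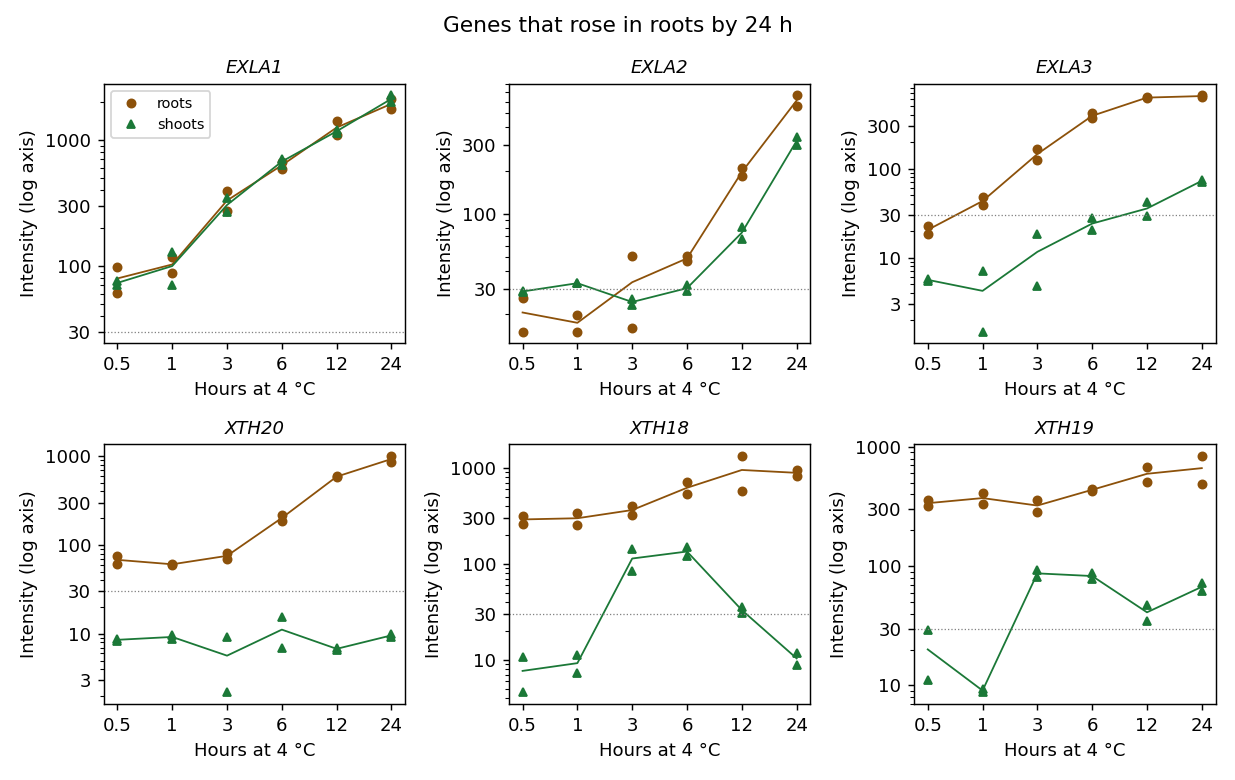
Intensity (log axis) against hours at 4 °C for EXLA1, EXLA2, EXLA3, XTH20, XTH18 and XTH19, with brown circles for root arrays, green triangles for shoot arrays, lines through the mean of the 2 arrays and a dotted line at 30. EXLA1 follows a similar course in both tissues, XTH20 climbs in roots to 858 and 997 while no shoot array exceeds 15.4, and XTH18 in shoots is highest at 3 h and 6 h.

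Among the alpha-expansins, the classical wall-loosening proteins, the largest fall was that of EXPA8 in shoots. In roots EXPA8 measured 29.9 and 49.1 at 0.5 h, 31.5 and 46.4 at 1 h, 40.6 and 19.98 at 3 h, 31.6 and 15.02 at 6 h, 14.7 and 13.6 at 12 h, then 9.41 and 1.23 at 24 h. In shoots EXPA8 measured 613 and 605 at 0.5 h, 629 and 821 at 1 h, 664 and 359.6 at 3 h, 270.2 and 177 at 6 h, 45.96 and 47.6 at 12 h, then 11.4 and 11.97 at 24 h. In shoots both arrays at 6 h, 12 h and 24 h were below all arrays at 0.5, 1 and 3 h, and at 24 h the gene lay under the floor of 30 in each tissue. EXPA8 had a 24 h change of -1.72 ± 0.33 in roots (adjusted p 0.00048) and -4.84 ± 0.33 in shoots (adjusted p 2.5e-09), a difference of 3.12 ± 0.47 (adjusted p 8.7e-05). The root arrays at 0.5 h lay around the floor of 30, which limits how far the gene could fall in roots. The summed green-tissue markers were also lower on root arrays at 24 h, as given above, and their part in the root fall was not tested. Over all times it was lower in roots than in shoots by a log2 difference of -2.65 ± 0.14 (adjusted p 2.8e-12), although at 24 h all 4 arrays measured under 12.

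EXPA4 showed the reverse tissue pattern. In roots EXPA4 measured 342 and 460.2 at 0.5 h, 467 and 549 at 1 h, 473 and 626 at 3 h, 363 and 269 at 6 h, 204 and 165 at 12 h, then 52.1 and 51.8 at 24 h. In shoots EXPA4 measured 94.5 and 72.02 at 0.5 h, 117 and 80.2 at 1 h, 88.5 and 62.6 at 3 h, 56.7 and 52.3 at 6 h, 52.6 and 36.1 at 12 h, then 30.9 and 34.6 at 24 h. At each time both root arrays were above both shoot arrays, but at 24 h the gap between the tissues was much narrower than at 3 h. EXPA4 had a 24 h change of -2.71 ± 0.23 in roots (adjusted p 5.8e-08) and -1.12 ± 0.23 in shoots (adjusted p 0.00046). The fall was larger in roots by a difference of -1.60 ± 0.32 (adjusted p 0.00097).

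EXPA15 was not called before 24 h in either tissue. In roots EXPA15 measured 138 and 137 at 0.5 h, 152 and 139 at 1 h, 131 and 179.5 at 3 h, 138 and 117 at 6 h, 141 and 146 at 12 h, then 60.3 and 64.4 at 24 h. In shoots EXPA15 measured 71.4 and 60.8 at 0.5 h, 71.8 and 74.3 at 1 h, 83.1 and 59.97 at 3 h, 51.5 and 65.8 at 6 h, 65.4 and 77.7 at 12 h, then 45.2 and 46.2 at 24 h. In roots both 24 h arrays were below all 10 earlier arrays, and the change was -1.03 ± 0.16 (adjusted p 7.6e-05). In shoots the change was -0.45 ± 0.16 (adjusted p 0.029), which was not called after median centring (-0.18, adjusted p 0.42), after quantile normalization, or without 1 of 3 arrays in turn (adjusted p up to 0.18 without replicate 1 at 0.5 h).

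EXPA16, the alpha-expansin that rose in shoots, had fewer arrays at the intensity floor than any other of the 22 genes. In roots EXPA16 measured 7.92 and 11.7 at 0.5 h, 8.78 and 7.78 at 1 h, 9.5 and 10.7 at 3 h, 9.83 and 7.81 at 6 h, 9.08 and 2.3 at 12 h, then 2.52 and 7.08 at 24 h. In shoots EXPA16 measured 19.3 and 17.1 at 0.5 h, 17.03 and 12.5 at 1 h, 10.8 and 17.5 at 3 h, 15.9 and 15.6 at 6 h, 19.03 and 13.4 at 12 h, then 48.9 and 88.3 at 24 h. Only the 2 shoot arrays at 24 h exceeded 30, which is how the gene met the rule. Its change by 24 h was -0.43 ± 0.24 in roots, where it was not called (adjusted p 0.14), and 1.43 ± 0.24 in shoots. The difference between the tissues was -1.86 ± 0.34. Because the shoot values at 24 h chose the gene, this rise and this difference are given as a description.

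EXPA20 was dim throughout, with 5 root arrays and no shoot array at 30 or above. In roots it measured 31.1 and 14.1 at 24 h, against 29.7 and 32.9 at 0.5 h, so that the arrays overlapped, and the change of -0.39 ± 0.25 was not called (adjusted p 0.22). Without replicate 1 of roots at 24 h it was -0.78 and was called (adjusted p 0.032). In shoots it measured 1.68 and 4.41 at 24 h, against 16.1 and 19.4 at 0.5 h, and the change was -1.10 ± 0.25 (adjusted p 0.0016).

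EXPA7 and EXPA18 are known from Arabidopsis as expansins of root hair cells. In roots EXPA7 measured 96.6 and 47.4 at 0.5 h, 85.5 and 60.3 at 1 h, 37.7 and 119.6 at 3 h, 33.9 and 76.8 at 6 h, 50.2 and 48.5 at 12 h, then 43.6 and 57.2 at 24 h. In shoots EXPA7 measured 19.9 and 16.7 at 0.5 h, 1.04 and 8.23 at 1 h, 6.57 and 10.6 at 3 h, 9.35 and 5.27 at 6 h, 9.42 and 7.95 at 12 h, then 8.08 and 13.7 at 24 h. EXPA18 had a lowest value of 32.2, a median of 58.3 and a highest value of 119 on root arrays, and a lowest value of 2.11, a median of 15.5 and a highest value of 22.7 on shoot arrays. All 12 root arrays were above all 12 shoot arrays for both genes, with log2 differences between roots and shoots of 1.86 ± 0.16 for EXPA7 and 1.61 ± 0.19 for EXPA18. Both genes met the rule through their root arrays, so these differences are given as a description.

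Neither gene was called at any time in either tissue. In roots the change by 24 h was -0.38 ± 0.40 for EXPA7 (adjusted p 0.45) and -0.72 ± 0.47 for EXPA18 (adjusted p 0.22). Replicates of both genes differed in the same direction in some root groups. Replicate 2 minus replicate 1 on the log2 scale was -0.89 at 0.5 h, 1.44 at 3 h and 0.98 at 6 h for EXPA7, and -0.71, 1.30 and 1.23 at the same times for EXPA18, whereas at 12 h it was -0.04 for EXPA7 and 0.35 for EXPA18. In whole roots, fewer root hair cells and less RNA per cell cannot be told apart.

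EXPA9, another alpha-expansin with all root arrays above all shoot arrays, had a lowest value of 33.7, a median of 52.4 and a highest value of 123 in roots, and a lowest value of 17.8, a median of 22.9 and a highest value of 28.8 in shoots. In roots it measured 33.7 and 39.5 at 24 h, against 123 and 55.9 at 0.5 h, and the change was -1.01 ± 0.30 (adjusted p 0.011). This call rests largely on replicate 1 at 0.5 h: without that array the change was -0.50 with an adjusted p of 0.22, and against a 1 h baseline it was -0.69 with an adjusted p of 0.072. Median centring, quantile normalization and leaving out replicate 1 at 24 h also ended the call. Its replicates differed in the same direction as those of EXPA7 and EXPA18, by -1.01 at 0.5 h, 0.83 at 3 h and 0.66 at 6 h.

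The beta-expansins loosen walls as the alpha-expansins do, and are best known from grass pollen. In roots EXPB3 measured 201 and 354 at 0.5 h, 387 and 293 at 1 h, 204 and 424 at 3 h, 258 and 225 at 6 h, 132 and 108 at 12 h, then 41.3 and 35.5 at 24 h. In shoots EXPB3 measured 114 and 133 at 0.5 h, 114 and 129.8 at 1 h, 140.2 and 60.8 at 3 h, 112 and 81.2 at 6 h, 75.4 and 68.3 at 12 h, then 35.3 and 32.7 at 24 h. At 24 h both arrays of each tissue were below all earlier arrays of that tissue. Both root arrays were above both shoot arrays at every time, at 24 h by little. EXPB3 had a 24 h change of -2.52 ± 0.33 in roots (adjusted p 1.1e-05) and -1.60 ± 0.33 in shoots (adjusted p 0.00057), and the difference between them was not called (adjusted p 0.15), except against the mean of 0.5 h and 1 h (adjusted p 0.044).

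In roots EXPB1 measured 67.5 and 55.7 at 0.5 h, 53.1 and 57.02 at 1 h, 32.7 and 46.99 at 3 h, 38.8 and 45.4 at 6 h, 31.5 and 47.1 at 12 h, then 26.7 and 24.3 at 24 h. In shoots EXPB1 measured 37.8 and 53.1 at 0.5 h, 28.8 and 42.5 at 1 h, 42.9 and 15.5 at 3 h, 34.9 and 19.3 at 6 h, 15.4 and 16.8 at 12 h, then 1.78 and 6.6 at 24 h. In each tissue both 24 h arrays were below both 0.5 h arrays. EXPB1 had a 24 h change of -1.01 ± 0.29 in roots (adjusted p 0.0092) and -1.97 ± 0.29 in shoots (adjusted p 2.2e-05). The root call was lost after median centring (-0.72, adjusted p 0.051) and without replicate 1 at 0.5 h (adjusted p 0.067) or replicate 2 at 24 h (adjusted p 0.052). EXPB2 had a lowest value of 27.2, a median of 51.4 and a highest value of 159 in roots, and a lowest value of 7.11, a median of 19.2 and a highest value of 31.6 in shoots, and no change over time was called in either tissue. Its 2 root arrays differed by 1.36 at 1 h, -1.11 at 3 h and -1.52 at 6 h, replicate 2 minus replicate 1 on the log2 scale, each of opposite sign to EXPA7 in the same group.

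Of the other XTH genes, XTH16 fell in both tissues. In roots XTH16 measured 97.9 and 55.1 at 0.5 h, 64.8 and 51.8 at 1 h, 29.5 and 41.7 at 3 h, 24.3 and 35.7 at 6 h, 17.1 and 16.5 at 12 h, then 7.46 and 11.01 at 24 h. In shoots XTH16 measured 109.5 and 151 at 0.5 h, 61.9 and 127 at 1 h, 93.9 and 112 at 3 h, 59.9 and 60.8 at 6 h, 29.05 and 23.1 at 12 h, then 30.6 and 35.4 at 24 h. Root values at 24 h were under 12, and shoot values at 12 h and 24 h were below all earlier shoot values. XTH16 had a 24 h change of -2.13 ± 0.27 in roots (adjusted p 8.1e-06) and -1.69 ± 0.27 in shoots (adjusted p 5.1e-05), and the tissues did not differ by a called amount (-0.44 ± 0.38, adjusted p 0.42).

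XTH21, which has been linked to growth of the primary root, was measured above 30 only in roots. In roots XTH21 measured 69.97 and 36.6 at 0.5 h, 55.3 and 36.9 at 1 h, 19.3 and 29.5 at 3 h, 14.5 and 28.9 at 6 h, 10.3 and 6.19 at 12 h, then 1.39 and 11.5 at 24 h. In shoots XTH21 measured 0.618 and 0.622 at 0.5 h, 0.529 and 0.517 at 1 h, 1.82 and 0.775 at 3 h, 0.509 and 0.42 at 6 h, 0.421 and 0.415 at 12 h, then 0.598 and 0.717 at 24 h, so that no shoot array exceeded 1.82. From 12 h on every root array was below every earlier root array, and the change by 24 h in roots was -1.96 ± 0.28. The 4 arrays at or above 30 are those of roots at 0.5 h and 1 h, so the rule used the baseline of this change, and it is given as a description. The difference between the tissues of -1.97 ± 0.40 rests on the same root arrays.

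XTH32 belongs to the small clade of XTH proteins with predicted hydrolase activity. In roots XTH32 measured 61.9 and 70.9 at 0.5 h, 82.6 and 56.8 at 1 h, 40.6 and 72.2 at 3 h, 53.6 and 53.5 at 6 h, 60.2 and 74.9 at 12 h, then 49.7 and 42.1 at 24 h. In shoots XTH32 measured 329 and 311 at 0.5 h, 407 and 469 at 1 h, 414 and 353 at 3 h, 275 and 275 at 6 h, 363 and 342 at 12 h, then 235 and 207 at 24 h. It was the only one of the 22 genes with all 12 root arrays below all 12 shoot arrays, with a log2 difference between roots and shoots of -2.28 ± 0.08 (adjusted p 8.7e-15). XTH32 had a 24 h change of -0.45 ± 0.20 in roots, which was not called (adjusted p 0.066), and -0.52 ± 0.20 in shoots (adjusted p 0.034), which was not called after median centring (-0.25, adjusted p 0.33) with a pseudocount of 1 (adjusted p 0.058) or without any 1 of the 4 arrays compared (adjusted p 0.055 to 0.17). The root change was called against a 1 h baseline (-0.50, adjusted p 0.047), against the mean of 0.5 h and 1 h (adjusted p 0.026) and without replicate 1 of shoots at 1 h and replicate 2 of roots at 3 h together (adjusted p 0.021). XTH33, which carries a predicted membrane anchor, had a lowest value of 9.89, a median of 27.5 and a highest value of 48.5 in roots, and a lowest value of 9.81, a median of 19.6 and a highest value of 31.8 in shoots, with no call over time in either tissue as reported. A fall of XTH33 by 24 h was called in roots without replicate 1 at 24 h (-0.87, adjusted p 0.023) and in shoots against a 1 h baseline (-0.71, adjusted p 0.04).

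**Figure D3:**
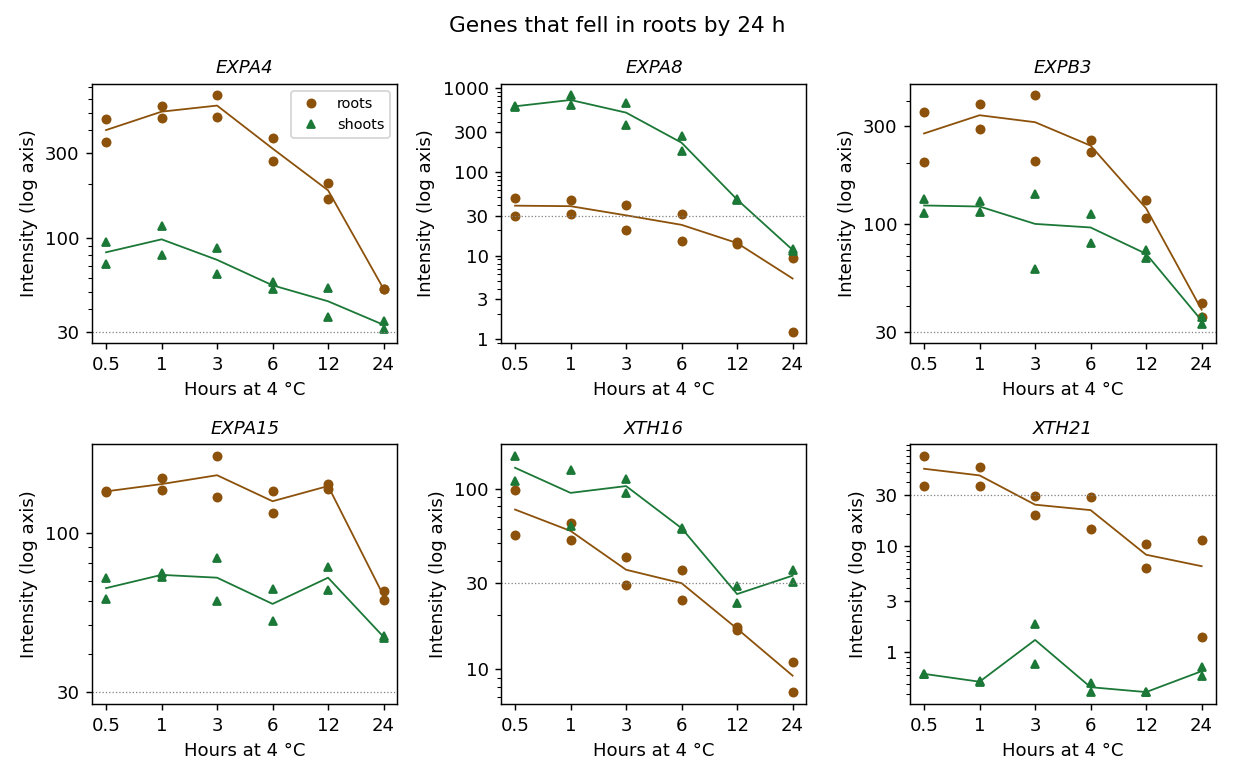
Intensity (log axis) against hours at 4 °C for EXPA4, EXPA8, EXPB3, EXPA15, XTH16 and XTH21, drawn with brown circles for root arrays, green triangles for shoot arrays, lines through the mean of the 2 arrays and a dotted line at 30. EXPA8 in shoots falls to 11.4 and 11.97 at 24 h, and EXPA4 in roots falls after 3 h. The mean of EXPB3 in roots falls from 1 h on, with the lowest arrays at 12 h and 24 h, and EXPA15 in roots is lower at 24 h only.

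Set side by side, 4 genes rose in both tissues by 24 h (EXLA1, EXLA2, EXLA3 and XTH19) and 6 fell in both (EXPA4, EXPA8, EXPA15, EXPB1, EXPB3 and XTH16). Of all probe sets tested, 8.42% were called higher in both tissues and 18.5% lower in both. XTH18 and XTH20 were called higher in roots only, and EXPA9 and XTH21 lower in roots only. EXPA16 was called higher in shoots only, and EXLB1, EXPA20 and XTH32 lower in shoots only, although each of these 3 was also called lower in roots under at least 1 other setting. EXPA7, EXPA18, EXPB2 and XTH33 were called in neither tissue, and among the 22 no gene was called in opposite directions. The 24 h change itself differed between the tissues, by an interaction term, for 9 of the 22 genes. It was higher in roots for EXLA2, EXLA3, EXLB1, EXPA8, XTH18 and XTH20 (background 15.5%) and lower in roots for EXPA4, EXPA16 and XTH21 (background 16.7%). Without EXPA16 and XTH21 it was called for 7 of 20. At 12 h the difference was called for 5, higher in roots for EXLA2, EXLA3, EXPA8 and XTH20 (background 10.4%) and lower for XTH21 (background 10.7%).

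**Figure D4:**
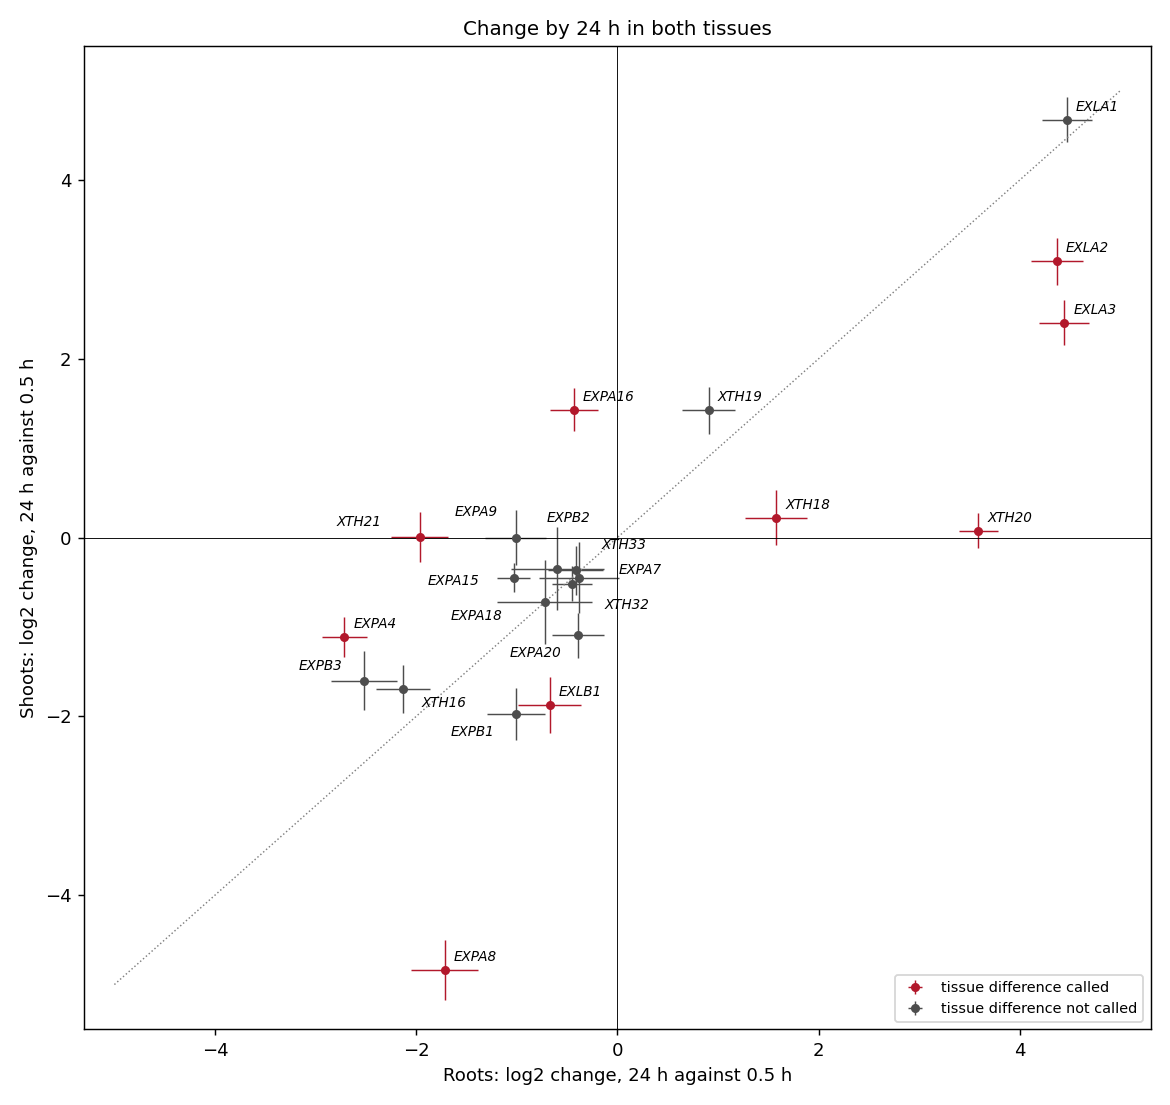
Log2 change at 24 h against 0.5 h in roots (horizontal axis) and shoots (vertical axis) of the 22 genes, with bars of 1 SE and a dotted line where both changes are equal. Red points mark the 9 genes whose change differed between the tissues by limma's interaction term; XTH20 lies far right at 3.59 and 0.08, and EXPA8 lowest at -1.72 and -4.84.

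Averaged over all times, most of the 22 genes had higher intensity in roots. By limma 17 were higher in roots than in shoots (background 57.6%), 4 were lower (background 29.2%) and EXLA1 was not called. The median log2 difference was 0.99, against 0.30 over all probe sets tested (with each array centred on its median, 0.76 against 0.07). The rule also bears on it, since 7 of the 22 (EXPA7, EXPA9, EXPA18, EXPA20, XTH20, XTH21 and XTH33) passed the floor only through root arrays and EXPA16 only through shoot arrays, which favours a difference in that direction, and for these 8 the differences are given as a description. Of the 14 genes that reached the floor in each tissue, 10 were called higher in roots and 3 lower. For 6 genes (EXPA7, EXPA9, EXPA18, XTH18, XTH19 and XTH20) all 12 root arrays were above all 12 shoot arrays (background 19.5%), and for XTH32 all were below (background 13.8%). EXPA7, EXPA9, EXPA18 and XTH20 passed the floor only through root arrays, which favours such a separation, and theirs is a description. Of the 14 genes that reached the floor in each tissue, only XTH18 and XTH19 had all root arrays above all shoot arrays. The calls for EXLA2 and XTH33 were lost with median centring or quantile normalization (that for EXLA2 also with a pseudocount of 1, adjusted p 0.06; with median centring, 0.09 with an adjusted p of 0.44 for EXLA2 and 0.18 with an adjusted p of 0.18 for XTH33).

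XTH18 had a difference of 3.61 ± 0.13 (adjusted p 8.4e-15), with a lowest value of 255, a median of 465 and a highest value of 1320.5 in roots, and a lowest value of 4.58, a median of 21.3 and a highest value of 149 in shoots. XTH20 had a difference of 3.42 ± 0.08, but all its shoot arrays lay under 30 and the order of these 2 genes depends on the pseudocount: with 1 in place of 10 the difference was 4.34 for XTH20 and 4.15 for XTH18. Next came XTH19 with 3.10 ± 0.11, EXLA3 with 2.69 ± 0.10 and EXPA4 with 1.97 ± 0.09. EXPA8 with -2.65 ± 0.14, XTH32, XTH16 with -0.84 ± 0.11 and EXPA16 with -0.80 ± 0.10 were the 4 genes lower in roots. For EXPA8, XTH16 and EXPA16 the arrays of the tissues overlapped.

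**Figure D5:**
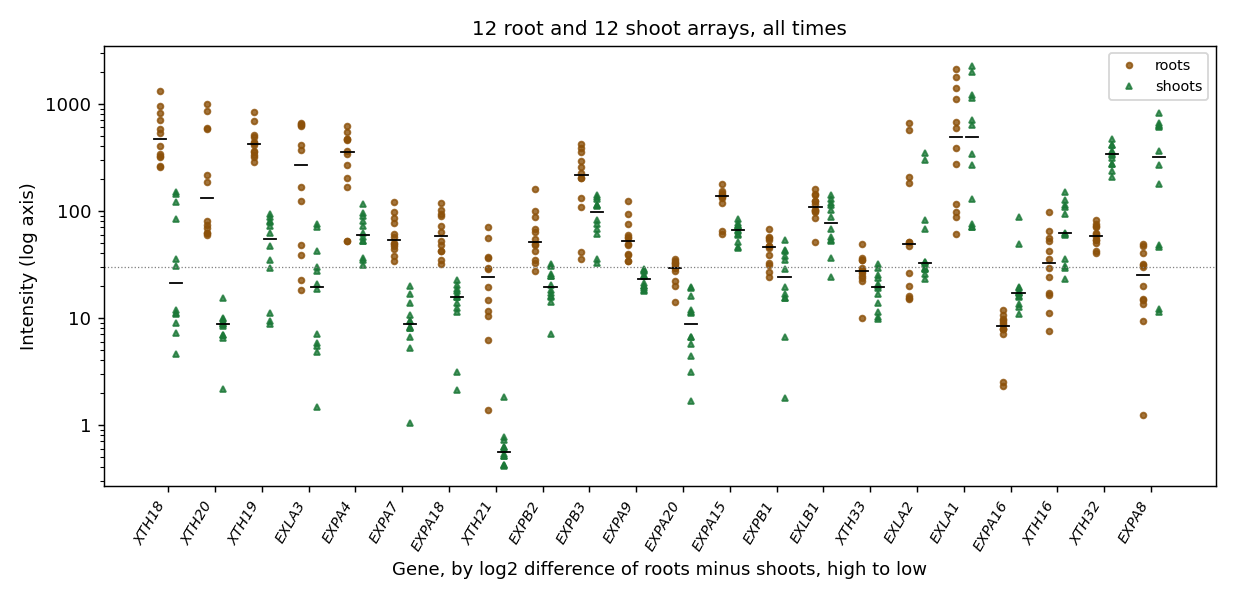
Intensity (log axis) of each gene on the 12 root arrays (brown circles, left of each pair) and the 12 shoot arrays (green triangles, right), over all times, with black bars at the medians and a dotted line at 30. Genes run from the largest to the smallest log2 difference of roots minus shoots; XTH18, XTH20 and XTH19 stand at the left without overlap, and XTH32 near the right end with all shoot arrays above all root arrays.

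All 22 genes are accounted for above, and 5 of them (EXLA1, EXPA4, EXPA15, EXPB3 and XTH32) were at or above the floor of 30 on all 24 arrays. Just inside the rule lay EXPA16, with 2 arrays at or above 30 and a highest value of 88.3, and XTH21, with 4 arrays and a highest value of 70.0. Just outside lay EXPB5, with 1 array and a highest value of 30.03, followed by XTH26 with a highest value of 20.2 and XTH29 with 15.0. EXPA21 and EXPA24 never exceeded 2.78 and 4.08. EXGT-A3, whose RefSeq synonyms include XTH27, is not a member because the rule reads the annotated symbol. EXGT-A3 measured 312 and 376 in roots at 24 h, against 264 and 185 in roots at 0.5 h, and 118 and 169.7 in shoots at 24 h, against 858 and 867 in shoots at 0.5 h. Its change was 0.61 ± 0.24 in roots (adjusted p 0.041) and -2.53 ± 0.24 in shoots (adjusted p 1.1e-07), a difference of 3.14 ± 0.33 (adjusted p 2.6e-06).

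Other wall genes were read from short lists matched by symbol or synonym. Of the list for xyloglucan synthesis, which makes the substrate of the XTH enzymes, 4 of 5 were tested, all of the CSLC family of glucan synthases. By 24 h, 2 of the 4 were lower in roots (ATCSLC08 with a change of -1.07 ± 0.21 and CSLC5 with -0.49 ± 0.14) and 3 in shoots (CSLC04 with -1.84 ± 0.19, ATCSLC08 with -1.40 ± 0.21 and CSLC5 with -0.70 ± 0.14), and none was higher, where 32.5% of all probe sets were lower in roots and 34.3% in shoots. On so short a list these counts are a description only. CSLC04, the main xyloglucan backbone synthase, measured 163 and 253 in roots at 24 h, against 193 and 165 in roots at 0.5 h, and 45.1 and 49.7 in shoots at 24 h, against 199 and 191 in shoots at 0.5 h. Its change differed between the tissues by 2.01 ± 0.27 (adjusted p 3.0e-05).

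Of the list for cellulose synthesis 2 were tested. COB, the COBRA protein that orients cellulose deposition, rose by 0.77 ± 0.14 in roots (adjusted p 0.00019) and by 0.97 ± 0.14 in shoots (adjusted p 1.2e-05), and GH9A3 was not called in either. Of the list for pectin, 5 of 6 were tested. In roots 2 rose (ATPMEPCRB with a change of 1.11 and GAUT15 with 0.45) and 2 fell (PMEPCRF with -0.97 and ATPMEPCRD with -0.69). In shoots GAUT15, a galacturonosyltransferase-family gene, rose by 1.47, and 3 fell, namely the pectin methylesterase genes PMEPCRF with a change of -1.91, PME61 with -1.27 and ATPMEPCRD with -0.96. The counts of the cellulose and pectin lists stand against 15.5% of all probe sets higher and 32.5% lower in roots, and 19.2% higher and 34.3% lower in shoots.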

How the data were processed

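Total RNA of 24 samples was hybridised to Affymetrix ATH1 arrays. The authors summarised each probe set with MAS5, per the submitters' processing notes, and deposited one linear intensity per probe set and array. No version, settings or genome build of that step is given in the sources used here. Titles gave each sample its group and replicate number. A pseudocount of 10 was added to the deposited intensities before log2. Without 64 controls there were 22746 probe sets, of which 16073 reached 30 on 2 or more arrays and entered the tests. By the platform annotation 13513 probe sets have 1 gene, 503 have several (2 of these naming an expansin or XTH gene) and 8730 have none, and genes of these families on the last 2 kinds are not analysed here. All 22 members matched the RefSeq table (TAIR10.1).

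Means of the 12 groups were fitted to all 24 arrays with limma 3.58.1 in R 4.3.3 (lmFit, eBayes), which gave 12 residual degrees of freedom. Tests were 2-sided, with Benjamini-Hochberg adjustment over all 16073 probe sets within each of 13 comparisons and a threshold of 0.05. The fit was tested on simulated data with independent errors, which cannot show how it behaves where groups share deviations. The deviations of same-numbered samples were compared between groups. Over 66 pairs of groups their correlation was -0.451 to 0.330, with a median of -0.00884, and 9 exceeded 0.1. Some groups thus shared deviations, which fell on the same replicate number in some pairs and on the other number in others. The labels do not say what a replicate number marks, and it was not used as a block.

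All members may be named. Values in every group are given for those called and among the 6 highest or 6 lowest by log2 change at 24 h in either tissue or between tissues. From each related list up to 3 called genes by absolute 24 h change were to be named. All called ones are named here, which is over 3 for pectin in each tissue. The members and lists were chosen with earlier results of these data known. The lists of root hair markers, proton pumps with small auxin up genes, and wall glycoproteins had 0 members among the single-gene symbols. Alternatives were other pseudocounts, filters, scalings, baselines, a replicate block, tissues fitted apart and leaving out arrays. The number of arrays limits the precision of every value.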

Additional observations from a re-analysis of the deposited data

Results flagged for a closer look

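The change in the cold differed between roots and shoots for several genes, by limma's interaction term with adjustment over all probe sets. Each value below is the roots' log2 change against 0.5 h minus that of shoots.

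At 12 h the difference was 3.09 for XTH20, 2.85 for EXLA3, 2.44 for EXPA8, 1.66 for EXLA2 and -1.72 for XTH21. For EXPA8 a positive value means that the fall was smaller in roots. Its root arrays at 0.5 h measured 29.9 and 49.1, around the floor of 30, which limits how far it could fall there. For XTH20 and the EXLA genes a positive value means a larger rise. With a pseudocount of 1 the 12 h differences of EXPA8 (2.29, adjusted p 0.057) and XTH21 (-2.33, adjusted p 0.053) were no longer called.

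At 24 h the difference was 3.51 for XTH20, 3.12 for EXPA8, 2.04 for EXLA3, 1.36 for XTH18, 1.28 for EXLA2 and 1.20 for EXLB1. It was -1.60 for EXPA4, -1.86 for EXPA16 and -1.97 for XTH21. XTH21 and XTH20 were at or near the bottom of the intensity scale on all shoot arrays, so for both the difference is set almost wholly by roots. EXPA16 was near the bottom on all root arrays. Its difference came mostly from the rise in shoots and in part from a fall in roots that was not called. EXPA16 and XTH21 also met the intensity rule through the values that set the difference, and theirs is a description.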

How the results depend on the processing

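Over 13 comparisons, 103 of 286 results for single genes were called. Of these, 77 kept their call in every alternative run that tested the gene and 26 lost it in at least 1. Among called values 0 changed sign. The run with a floor of 100 tested 14 of the 22 genes. The number of genes called moved by over 1.5 times in few cases. In roots at 6 h it was 7, against 4 with the tissues fitted apart, 4 with a 1 h baseline and 3 to 7 with 1 array left out. The tissue difference at 12 h was called for 5 genes, and for 3 with a pseudocount of 1. That at 24 h was called for 9 genes, and for 7 to 12 under 10 settings other than leaving out 1 array. The highest count at 24 h came against the mean of 0.5 h and 1 h, where EXPA15, EXPB3 and XTH19 were added. Single calls of this difference were less steady at 24 h than at 12 h. Of 18 other settings, EXLB1 lost its 24 h call in 10, XTH18 in 6, EXLA2 in 3 and EXLA3 in 1. At 12 h EXPA8 and XTH21 each lost their call in 1 setting. Between roots and shoots 21 were called, and 13 of the 14 genes tested with a floor of 100. With 1 array left out the counts ranged from 0 to 1 in shoots at 1 h, 3 to 6 in shoots at 3 h, 4 to 6 in shoots at 6 h, 8 to 10 in shoots at 12 h, 12 to 13 in shoots at 24 h, 0 to 0 in roots at 1 h, 2 to 3 in roots at 3 h, 9 to 10 in roots at 12 h and 12 to 16 in roots at 24 h, and were 5 to 6 for the tissue difference at 12 h, 6 to 9 at 24 h and 21 to 21 between tissues. Median centring moved the median change of all probe sets by 24 h to 0.08 in roots and 0.06 in shoots, against -0.21 and -0.20 as deposited, and left 6 genes higher and 6 lower in roots, and 5 higher and 7 lower in shoots. With the replicate number as a block, 5 genes were called in roots at 6 h, XTH18 and XTH21 being lost, and the other 12 counts were as reported. What the replicate numbers mark is not stated.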

Other observations

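Root arrays of the same group differed together in several of these genes. The widest differences at 3 h, replicate 2 minus replicate 1 on the log2 scale, were found in several families. They were 1.44 for EXPA7, 1.30 for EXPA18, 1.22 for EXLA2, 1.02 for EXPB3, 0.83 for EXPA9, 0.70 for XTH32 and 0.70 for XTH33. In the other direction they were -1.11 for EXPB2, -0.75 for EXPA8 and -0.64 for EXLB1. The summed intensity of 5 green-tissue markers was 307 on replicate 1 and 675 on replicate 2 of that group, and its part in these differences was not tested.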
